A study of Brassica napus with 6 samples.

Results

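ATP sulfurylase and sulfite reductase stand at the entry and near the exit of sulfate reduction in plants, and 3 genes encoding them could be followed in oilseed rape roots. They were the ATP sulfurylase genes APS3 (Arabidopsis locus AT4G14680, probe set 245254_at) and APS4 (AT5G43780, probe set 249112_at) and the sulfite reductase gene SIR (AT5G04590, probe set 250846_at). The members were taken by gene name, and each was read by the one probe set that the platform annotation pairs with that gene alone. They are 3 of the 13350 genes named in this way and 3 of the 22746 probe sets tested.

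Sulfate is chemically inert until ATP sulfurylase joins it to ATP, giving adenosine 5′-phosphosulfate. APS reductase turns that compound into sulfite. Sulfite reductase, a siroheme enzyme fed by ferredoxin in the plastid, then carries sulfite to sulfide, which is built into cysteine and from there into glutathione. In Arabidopsis APS3 and APS4 are members of a small ATP sulfurylase family and are among the targets of the microRNA miR395, while SIR is the only gene for its enzyme. Glutathione is an end product of the pathway, and in canola glutathione carried in the phloem is known as a signal of the shoot's sulfur state that lowers root ATP sulfurylase activity and sulfate uptake. These points are background and were not measured here.

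The roots came from oilseed rape (Brassica napus, cultivar Nourin No.16), harvested after 4 weeks of growth, with 3 arrays labelled as biological replicates in each group. Control plants were left untreated for 4 days. The other plants had reduced glutathione (GSH, agent of the treated group) brushed daily for 4 days onto 3 expanded leaves each, at 50 µL per leaf of a 100 mM solution that also held buffer and detergent. The labels name no brushing of the controls with that solution, so GSH and the application itself cannot be told apart. Both groups had the same nutrient solution, and 4 seedlings shared a container. The labels do not say how containers map to replicates. The roots are bulk tissue, so a change in the share of a cell type and a change of RNA per cell cannot be told apart.

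The comparison asks whether GSH on the leaves moves the roots' transcripts. The probe sets were designed for Arabidopsis, and rape has several related copies of many Arabidopsis genes, so a value may combine copies or lose signal to sequence differences. The deposited values are on a log scale that was taken as log2 from its range of 5.09 to 12.9. The arrays were almost identical, the lowest correlation between a pair falling short of 1 by 1.39e-08. The median range of a probe set over the arrays was 1.91 millionths of a unit. The differences below are therefore in millionths of a deposited unit. They are too small to be read as ratios of RNA amounts, and their size cannot be compared between probe sets. Of the tissue markers listed for checking, 2 of 14 root genes and 2 of 8 leaf genes had a probe set paired with them alone. The root hair expansin EXPA7 lay at the 80.1st percentile of mean signal and EXPA18 at the 64.1st, the leaf genes RCA at the 73.2nd and LHCB4.1 at the 36.6th. These few probe sets do not separate root from leaf.

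All members gave bright signals. The mean signal was 6.76 for APS3, at the 95.5th percentile of all probe sets, 6.70 for APS4, at the 94.98th percentile, and 6.99 for SIR, at the 96.9th. Each lay above the upper quartile of 6.06 on 6 of 6 arrays, by 0.70 for APS3, 0.64 for APS4 and 0.93 for SIR. Signals of different probe sets depend on their sequences, so these positions do not rank the genes by transcript amount.

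The deposited values of the members differed in their spread between arrays. The SD over the 6 arrays was 19.8 millionths for APS4 and 10.4 millionths for APS3, at the 98.4th and 97.2nd percentiles of all probe sets. SIR had an SD of 0.827 millionths, at the 54.5th percentile. The median SD of all probe sets was 0.724 millionths and bright ones had more, so each was also placed among the 1000 probe sets nearest to it in mean signal. There the SD of APS4 lay at the 91.8th percentile, that of APS3 at the 81.2nd and that of SIR at the 16.7th. The median SD of those neighbours was 2.01 millionths for APS4, 2.36 for APS3 and 3.87 for SIR. In deposited units both ATP sulfurylase probe sets thus varied more than most of their neighbours and the sulfite reductase probe set less than most. These places describe the deposited values and do not show which gene's RNA was steadier.

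**Figure D1:**
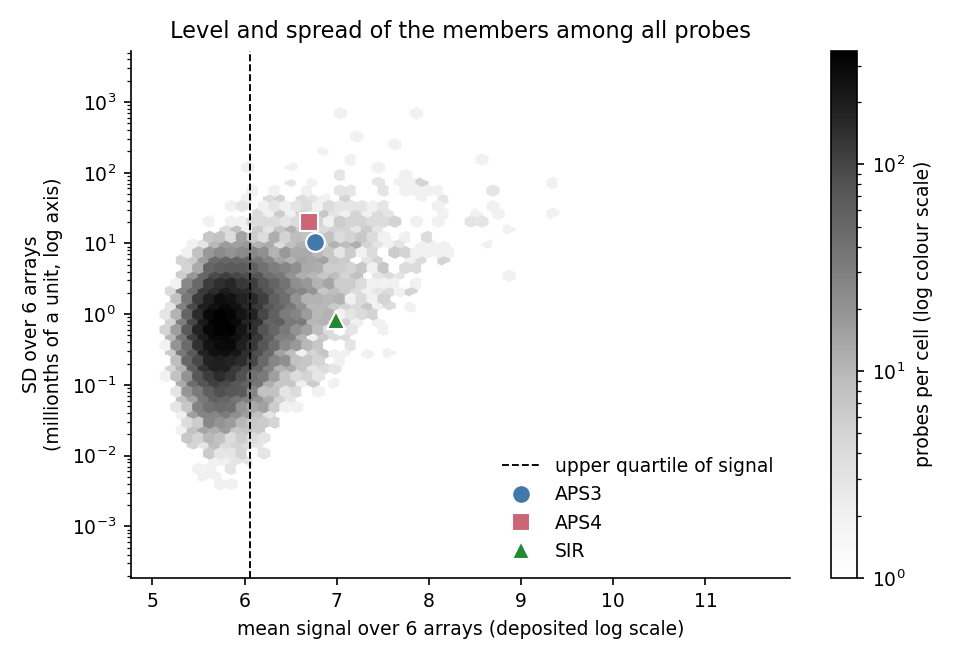
Standard deviation over the 6 arrays (millionths of a unit, log axis) against mean signal (deposited log scale) for all tested probe sets, shaded by their number, with the members as coloured points and the upper quartile of signal as a dashed line. APS4 (SD 19.8) and APS3 (10.4) lie above the median SD of probe sets of like signal and SIR (0.827) lies below it.

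APS4 was the member with the clearest separation of the groups. Relative to its own mean over all arrays, its signal was -13.8, -30.8 and -0.25 millionths in control replicates 1, 2 and 3. In the GSH replicates it was 8.20, 11.9 and 24.8 millionths. All 3 GSH arrays lay above all 3 controls, with a gap of 8.45 millionths between the closest arrays. The group means were -15.0 ± 15.3 (SD, n = 3) in controls and 15.0 ± 8.69 (SD, n = 3) after GSH.

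The difference of APS4 was 29.9 millionths (SE 9.25, 95% interval 5.86 to 53.9), or 2.40 times the SD within groups. It did not pass the test over all probe sets, with a limma unadjusted p of 0.0243 and a Benjamini-Hochberg adjusted p of 0.647. The exact two-sided permutation test over arrays gave p = 0.1, the smallest that 3 arrays against 3 allow. An unadjusted p under 0.05 was reached by 6.75% of all probe sets, 3.13% with the mean higher after GSH and 3.61% with it lower. Among the 1000 nearest to APS4 in signal the share in either direction was 17.4%. Groups that did not overlap were found at 11.4% of all probe sets and at 21.6% of those 1000. They did not overlap with GSH higher at 5.63% of all probe sets and at 7.7% of the 1000 nearest to APS4 in signal. No probe set was called at an adjusted p under 0.05 (0.0% of 22746), while 1535 had an unadjusted p under 0.05.

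APS3, which encodes the same enzyme activity, showed no separation. Its signal was 10.5, -9.23 and 6.88 millionths in control replicates 1, 2 and 3, again relative to its own mean. It was -14.7, -2.31 and 8.92 millionths in the GSH replicates. At 15.8% of the 1000 probe sets nearest to APS3 in signal all GSH arrays lay below the controls. For APS3 the groups overlapped over most of their range, with the lowest array in the GSH group and the highest among the controls. The means were 2.71 ± 10.5 (SD, n = 3) in controls and -2.71 ± 11.8 (SD, n = 3) after GSH.

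The difference of APS3 was -5.41 millionths (SE 8.31, 95% interval -27.0 to 16.2). The limma adjusted p was 1.00 and the exact permutation p was 0.6. Its sign rested on a single array, being 0.599 millionths without GSH replicate 1 and -11.4 without control replicate 2. The interval holds shifts in either direction that are larger than the difference itself.

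**Figure D2:**
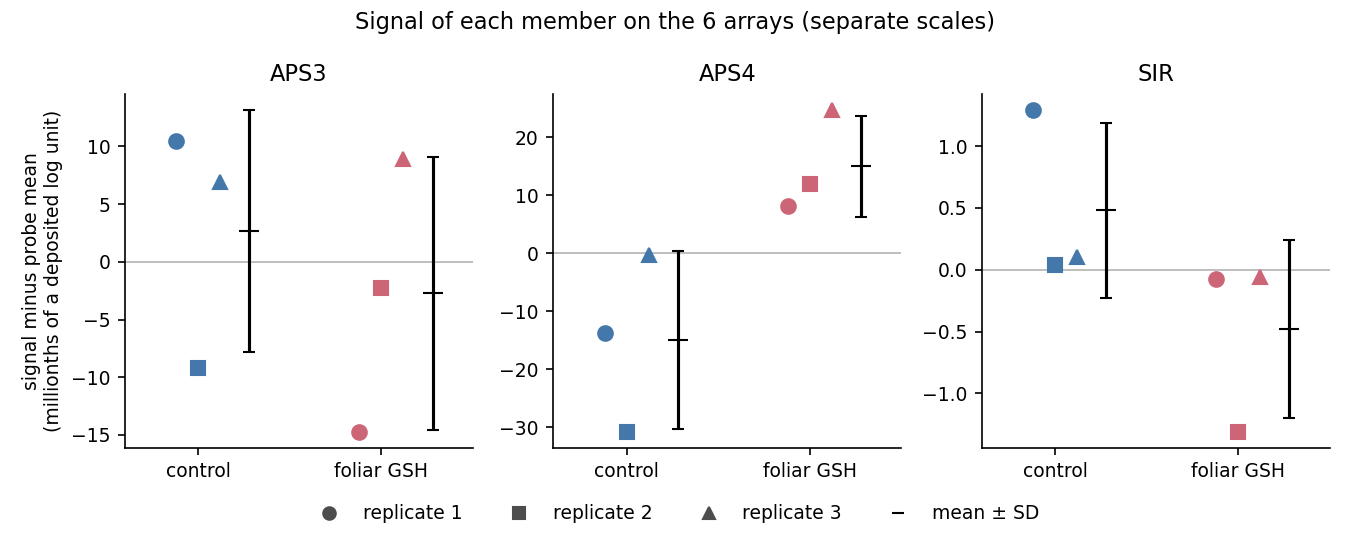
Signal of APS3, APS4 and SIR on each array, as the deviation from the probe set's mean over 6 arrays in millionths of a deposited log unit, with a separate vertical scale per gene. Marker shapes give the replicate number, and the black bars give the group mean ± SD (n = 3). GSH arrays lie above the controls for APS4, overlap them for APS3 and lie narrowly below them for SIR.

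SIR, which completes the reduction to sulfide, differed by little in deposited units and only narrowly between groups. Its signal was 1.30, 0.041 and 0.106 millionths in control replicates 1, 2 and 3. After GSH it was -0.074, -1.31 and -0.057 millionths. One control array stood high and one GSH array stood low, while the other two of each group lay close together. The gap between the groups was 0.098 millionths.

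The SIR means were 0.481 ± 0.706 (SD, n = 3) in controls and -0.481 ± 0.719 (SD, n = 3) after GSH. The difference was -0.961 millionths (SE 0.543, 95% interval -2.37 to 0.45), with a limma adjusted p of 0.867 and an exact permutation p of 0.1, again the smallest possible. Groups that did not overlap with GSH lower were found at 5.75% of all probe sets, and at 18.9% of the 1000 nearest to SIR in signal. The medians of the arrays themselves differed by up to 1.65 millionths, more than the SIR groups did. With each array centred on its median the SIR groups overlapped and the difference was -0.364 millionths (SE 0.875). The APS4 groups still did not overlap after that step, at 30.5 millionths (SE 8.85).

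**Figure D3:**
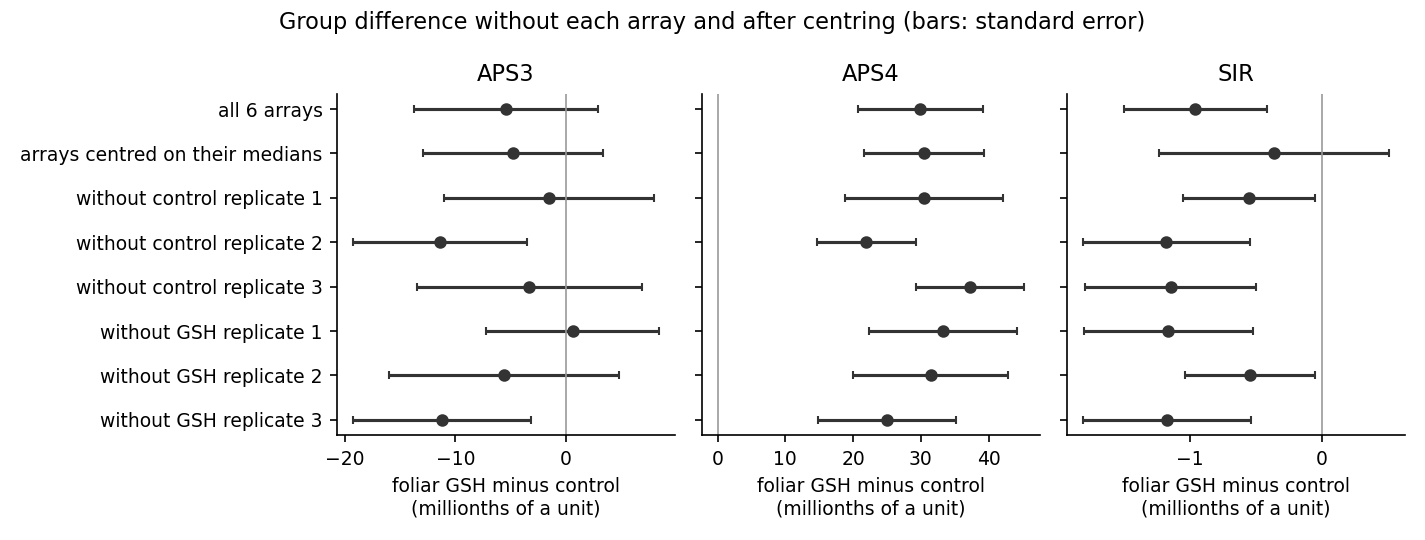
Difference between foliar GSH and control (millionths of a unit, horizontal axis, one scale per gene) with all 6 arrays, with arrays centred on their medians and without each array in turn. Points are estimates of the limma fit and bars are their standard errors. APS4 stays between 22.0 and 37.3 without single arrays, whereas APS3 runs from -11.4 to 0.599.

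The mean differences of the ATP sulfurylase genes had opposite signs. The pair was taken with those signs known, so the difference between their probe sets on each array is a description, with no test. APS4 minus APS3, centred on its mean over all arrays, was -24.2, -21.6 and -7.14 millionths in control replicates 1, 2 and 3. In the GSH replicates it was 22.9, 14.2 and 15.8 millionths. All 3 GSH arrays lay above all 3 controls, and the closest arrays of the groups were 21.3 millionths apart. APS4 alone already separated the groups, by 8.45 millionths. How often other pairs of opposite sign separate the groups was not computed.

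The group difference of APS4 minus APS3 was 35.3 millionths with a pooled standard error of 5.95. Most of it came from APS4, which alone differed by 29.9 millionths, against -5.41 for APS3. For APS4 alone the standard error computed the same way was 10.2, and for APS3 alone it was 9.13. As the pair was chosen with its signs known, the smaller standard error of the contrast does not test whether the genes differ. Without single arrays the contrast ran from 32.0 to 40.6 millionths. Dividing each probe set by its SD within groups, a step chosen after the data were seen, gave 2.89 SDs (SE 0.497).

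The order of the arrays within groups was shared in part by the ATP sulfurylase probe sets. Control replicate 2 was the lowest control on both, and on SIR as well, while the highest control was replicate 1 on APS3 and replicate 3 on APS4. After GSH, replicate 1 was the lowest and replicate 3 the highest on both APS3 and APS4, whereas SIR was lowest in replicate 2. Over all 6 arrays Pearson's r was 0.204 between APS3 and APS4, 0.406 between APS3 and SIR and -0.449 between APS4 and SIR. The APS3 and APS4 sequences are related, and whether their probe sets hybridise in part to the same rape transcripts was not tested.

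**Figure D4:**
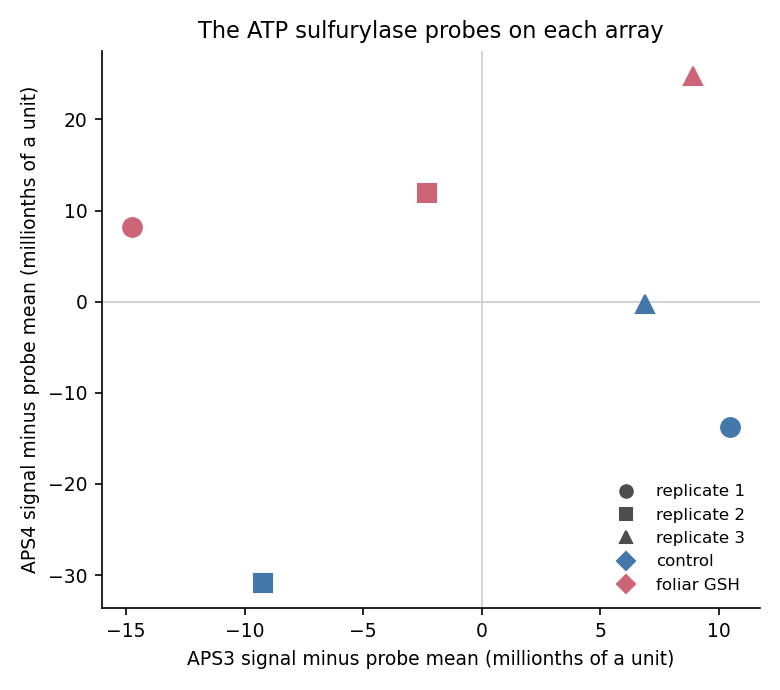
APS4 against APS3 on each array, both as the deviation from the probe set's own mean in millionths of a unit, coloured by group and shaped by replicate number. GSH arrays lie above the controls on the APS4 axis, and the groups overlap on the APS3 axis.

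The differences were small beside the distance from each member to the nearest probe set in mean signal. APS3 held rank 21729 from the dimmest of 22746 on every array, APS4 rank 21605 and SIR rank 22051. The nearest probe set in mean signal lay 148 millionths from APS3, 121 from APS4 and 184 from SIR, against ranges over arrays of 25.2, 55.6 and 2.61 millionths. Over all probe sets the median gap between neighbouring means was narrower, at 34.5 millionths, which is less than the range of APS4. Keeping one rank on all arrays was common, with 88.2% of probe sets doing so.

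Few other genes of sulfur assimilation had a probe set that the annotation pairs with them alone, which is what measured means here. Across 8 lists of pathway genes, 7 of 60 were measured in this way, the members included. In the list of sulfate activation and reduction, 3 of 8 were measured, and these are the members. Of all 7, 0 passed the limma test in either direction, 1 had a higher mean after GSH and 6 a lower one, where 52.0% of all probe sets had a higher mean and 48.0% a lower one. Their median difference was -0.339 millionths, where all probe sets had a median of 0.0137, but sizes do not compare between probe sets. The 3 members among the 7 were taken with their signs known, so the counts of higher and lower means are a description. The lists of sulfate transport, cysteine synthesis, adenosine phosphosulfate kinases and sulfotransferases, and glutathione synthesis had 0 measured genes. The 8730 probe sets unnamed here and the 503 paired with several genes were not assigned, so genes of these lists may still be on the array.

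The measured neighbours of the pathway gave overlapping groups. SIRB, the ferrochelatase that completes the siroheme of sulfite reductase, differed by -0.407 millionths (SE 0.445, limma adjusted p = 0.991). CBL, the cystathionine beta-lyase that carries cysteine sulfur towards methionine, differed by -0.260 millionths (SE 1.64, limma adjusted p = 1.00) and lay at the 97.7th percentile of signal. The sulfur deficiency gene SDI2 (AT1G04770) differed by -0.339 millionths (SE 0.322) and the beta-glucosidase gene BGLU28, known from sulfur-starved Arabidopsis, by -0.208 millionths (SE 0.198), each with a limma adjusted p of 0.970. BGLU28 lay below the lower quartile of signal on 6 of 6 arrays.

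The genes whose signal followed each member most closely over the 6 arrays were found by Pearson's r, as a description. For APS4 they were psbK, a plastid-encoded photosystem II subunit, with r = 0.990, AT2G21850 with 0.989 and AT5G65000, of the nucleotide-sugar transporter family, with 0.983. For APS3 they were AT1G29020 with 0.989, AT1G17960, a threonine-tRNA ligase, with 0.987 and AT1G65010 with 0.986. For SIR they were AT3G18430 with 0.985, AT4G28170 with 0.978 and AT4G19010, of the 4-coumarate-CoA ligase family, with 0.976. By rank, the genes named for APS3 and APS4 put the arrays in the same order as their member did. Those named for SIR did not, with Spearman's rho of at most 0.771. SIR stood apart mainly on control replicate 1 (1.30 millionths) and GSH replicate 2 (-1.31), so its high r values rest largely on those arrays. An r above 0.95 was reached by 54 probe sets for APS3, 39 for APS4 and 33 for SIR, of 22746. These are shares of 0.237%, 0.171% and 0.145%. How many unrelated probe sets reach such an r over 6 arrays was not computed, so the named genes are not shown to vary with the members. No pathway gene was among the named ones.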

How the data were processed

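Root RNA was measured on 6 single-colour arrays. Labelling with biotin started from 100 ng of total RNA, per the labels' protocols. The authors deposited a single value table, taken here as log2 and left unchanged. How they corrected background, summarised probes and normalized arrays, and the base of the logarithm, is not given in the sources used here. The submitters' processing notes name R 2.7.2. The number of arrays limits precision.

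From 22810 probe sets, 64 array controls were dropped. By the platform annotation 13513 stood for 1 gene, 503 for several genes and 8730 had no name here. No probe sequence was used here. Groups were fitted with limma 3.58.1 under R 4.3.3 (lmFit, then eBayes, prior degrees of freedom 0.83). P-values were adjusted by Benjamini-Hochberg over 22746 probe sets, with a threshold of 0.05 and no filter on dim ones. The limma steps were run on simulated data with known shifts. Every simulated probe set had the same noise SD, unlike the real ones, so that run checks the code alone. Each member also had an exact permutation test over arrays. That planned for APS4 minus APS3 is not reported, as the pair was chosen with its signs known.

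Members, lists and tests were chosen with earlier results of these data known. The named genes were the members, measured genes of the lists, and the 3 genes with the highest Pearson r to each member. Alternatives were quantile normalization, centring, a replicate block, brighter probe sets only, robust or trended variance, weighted arrays, Welch's test, a threshold of 0.10, leaving out each array and Spearman's rho.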

Additional observations from a re-analysis of the deposited data

How the results depend on the processing

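APS4 and SIR kept their sign in all 14 alternatives that gave a value, and no adjusted p went under 0.05 for any member. Most of these could not turn a sign. Welch's test, trended or robust variance, brighter probe sets only, the replicate block and the looser threshold leave the mean difference unchanged. As the groups of APS4 and SIR did not overlap, leaving out 1 array could not turn their sign either. Centring gave 30.5 millionths for APS4 and -0.364 for SIR, and array weights gave 30.4 and -1.13. APS4 had limma adjusted p from 0.495 to 0.886 and 0.989 by Welch's test. APS3 had adjusted p from 0.775 to 1.00 and SIR from 0.746 to 1.00. The sign of APS3 turned in 1 alternative, without GSH replicate 1 (0.599 millionths). Without single arrays APS3 ran from -11.4 to 0.599 millionths, APS4 from 22.0 to 37.3 and SIR from -1.18 to -0.546. With the replicate block the differences were unchanged by design, at -5.41 for APS3, 29.9 for APS4 and -0.961 for SIR. Their limma adjusted p were 0.999, 0.588 and 0.746. The APS4 minus APS3 contrast was likewise unchanged at 35.3 millionths (SE 6.99). Quantile normalization gives equal ranks equal values, and each member held the same rank on all arrays. Under that setting the group differences of all members therefore vanished, no sign was left, and the members were not tested.

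Limma called 0 probe sets, and again 0 when each array was left out in turn, with centring, trended or robust variance, array weights and Welch's test. The count was 4 among probe sets above the median signal, 4 at an adjusted p under 0.10, 1 with the replicate block and 27 after quantile normalization, which left 2688 probe sets with any difference. With Spearman's rho over 0.95, 23 probe sets were like APS3, against 54 by Pearson's r. The replicate block changed no other call. The labels give no meaning to the replicate number, and with each probe set scaled by its SD within groups, arrays of one number had correlated deviations of -0.0214, -0.0156 and 0.0992.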
